A study of Mus musculus with 42 samples.

Results

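Immobilized TA (tibialis anterior) muscle of Sesn1KO mice was compared with basal TA muscle of Sesn1KO mice by RNAseq, 4 libraries against 4. These 8 libraries, of 42 in the series, were chosen by their labels, and no measured value entered the choice. They belong to the second of 2 sets, and all tested genes of the table were compared. The mice were male C57BL/6J animals of 4 months. Sesn1KO denotes the genotype Sesn1-/-, which the basal and the immobilized group share. Immobilized muscles came from mice whose right hindlimb was fixed with rigid plastic sticks for 3 days, and basal muscles from other mice that underwent no atrophy procedure, so the 2 groups hold different animals. WT (wild type) basal and immobilized muscles of the same set, 4 libraries each, served to show where the Sesn1KO response differed. Denervated WT muscles of this set, 4 libraries, entered the fit only for the estimate of the spread. The knockout mice were supplied by another laboratory, and the methods name the WT mice as their normal controls and describe such controls as littermates of each line. Whether 1 library stands for 1 animal is not stated, so p-values measure the spread between libraries.

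A muscle that is neither loaded nor shortened loses mass because protein breakdown outruns synthesis. Breakdown runs largely through the ubiquitin-proteasome system, in which ligases such as MuRF1 and Atrogin1 tag proteins for the proteasome, and through autophagy, which delivers cell parts to lysosomes. Sestrins are stress-inducible proteins that restrain the growth kinase complex mTORC1 through the GATOR proteins and Rag GTPases, and that act on AKT, which keeps FoxO transcription factors out of the nucleus. The study used the Sesn1KO muscles to ask what inactivity does to muscle that lacks this regulator.

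The deposited values are normalized counts per gene on a linear scale, made by the authors, and they summed to between 1055513 and 1149252 per basal library and to between 943449 and 1126678 per immobilized library. The number of reads behind them is unknown, so no counting error can be given. On the log2 scale libraries correlated at 0.983 to 0.988 within the basal group, at 0.969 to 0.98 within the immobilized group and at 0.937 to 0.961 between the groups. The immobilized libraries were the more variable group, with a median SD of 0.25 over genes on the log2 scale against 0.17 in the basal group. Skeletal muscle fiber markers were present in every library and summed to 125576 to 158008 in basal and 95329.9 to 135651 in immobilized muscle.

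Sesn1 itself (chr10:41809935-41908424 on the plus strand of GRCm38) was measured at 9.11, 10.05, 8.41 and 8.99 normalized counts in the basal libraries and 37.3, 27.7, 19.4 and 19.6 in the immobilized libraries. The groups did not overlap, and the gene rose by the limma test used throughout (log2 fold change 1.36, SE 0.17, adjusted p = 3.0e-06). In WT muscle it was measured at 28.1, 22.5, 29.7 and 22.8 normalized counts in basal and 30.7, 41.02, 53.1 and 39.3 in immobilized libraries, so basal Sesn1KO muscle lay below every WT library while immobilized Sesn1KO muscle overlapped both WT groups. Which part of the gene the allele lacks is not given in the sources used here, and these are counts over the whole gene, so residual reads do not show whether intact Sesn1 is made. The paper describes the mice as deficient in Sesn1 and shows a Western blot of Sesn1 protein in both genotypes. That protein evidence was not examined here, and RNA counts do not bear on it. The rise in Sesn1KO was not distinguishable from that in WT muscle (difference 0.73, adjusted p = 0.43). In these counts every immobilized WT library lay above every basal WT library. The paper, by contrast, reports that Sesn1 RNA and protein fell in WT muscle after immobilization. The reason for this conflict was not tested. Sesn2, a family member induced by stress, was measured at 3.04, 2.86, 3.16 and 4.01 normalized counts in the basal libraries and 6.35, 5.80, 4.97 and 5.39 in the immobilized libraries without overlap (log2 fold change 0.64, adjusted p = 0.042, or 0.59 to 0.65 with adjusted p from 0.061 to 0.096 without basal replicate 1, 2 or 3 or immobilized replicate 1, 2 or 4). Sesn3 showed overlapping groups (log2 fold change -0.09, adjusted p = 0.77).

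The genes with the largest changes in each direction included Csrp3, Ankrd1, Lrrc38 and Ky, which were taken as markers of the comparison because earlier results of these data were known. Csrp3 (muscle LIM protein, a Z-disc protein of the stretch response) lies at chr7:48830398-48848033 on the minus strand, and Ankrd1 (a muscle ankyrin repeat protein that binds titin) at chr19:36111961-36120099 on the minus strand. Lrrc38 (an auxiliary subunit of the large-conductance potassium channel) lies at chr4:143349757-143371032 on the plus strand, and Ky (the kyphoscoliosis peptidase of the Z-disc) at chr9:102505750-102546239 on the plus strand. The 250 bases before their RefSeq start sites (GRCm38.p6) are printed here, with those of the metallothionein gene Mt2, since they are the markers of the comparison and the gene with the third largest increase. Sequences run 5′ to 3′ on the gene's strand in lower case, and capitals mark matches to 1 of 12 short motifs searched on both strands. The windows are chr7:48848052-48848301 (minus) for Csrp3, chr19:36119845-36120094 (minus) for Ankrd1, chr4:143349500-143349749 (plus) for Lrrc38, chr9:102505888-102506137 (plus) for Ky and chr8:94172368-94172617 (plus) for Mt2. Csrp3 has a second RefSeq window, chr7:48843672-48843921 (minus), which held none of the 12 motifs and is not printed.
Csrp3: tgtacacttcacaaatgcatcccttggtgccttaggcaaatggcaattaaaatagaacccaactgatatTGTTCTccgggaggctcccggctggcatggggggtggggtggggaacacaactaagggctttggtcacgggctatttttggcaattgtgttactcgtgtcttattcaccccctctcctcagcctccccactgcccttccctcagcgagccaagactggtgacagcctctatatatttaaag
Ankrd1: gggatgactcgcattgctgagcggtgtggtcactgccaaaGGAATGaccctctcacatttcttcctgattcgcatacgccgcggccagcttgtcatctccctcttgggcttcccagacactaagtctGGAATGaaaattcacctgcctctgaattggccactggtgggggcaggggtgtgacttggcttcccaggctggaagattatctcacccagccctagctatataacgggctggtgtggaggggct
Lrrc38: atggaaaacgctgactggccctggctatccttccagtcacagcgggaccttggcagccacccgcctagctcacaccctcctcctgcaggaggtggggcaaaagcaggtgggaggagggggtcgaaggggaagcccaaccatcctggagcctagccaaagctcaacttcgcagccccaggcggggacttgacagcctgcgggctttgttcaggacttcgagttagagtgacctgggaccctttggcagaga
Ky: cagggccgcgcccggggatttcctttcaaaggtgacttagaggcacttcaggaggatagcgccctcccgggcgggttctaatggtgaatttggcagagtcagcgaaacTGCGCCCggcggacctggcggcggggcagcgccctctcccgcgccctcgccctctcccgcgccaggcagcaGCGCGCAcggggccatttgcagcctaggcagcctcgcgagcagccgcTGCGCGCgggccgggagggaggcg
Mt2: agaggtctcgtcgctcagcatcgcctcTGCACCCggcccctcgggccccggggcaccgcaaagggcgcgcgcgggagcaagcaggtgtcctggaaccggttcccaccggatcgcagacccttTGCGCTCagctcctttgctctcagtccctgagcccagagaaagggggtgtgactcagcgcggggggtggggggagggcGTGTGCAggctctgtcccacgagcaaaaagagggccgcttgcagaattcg
In Ankrd1 the capitals mark 2 MCAT elements (CATTCC, on the other strand), in Csrp3 1 glucocorticoid response motif (TGTTCT), in Ky 3 metal response elements of the G form (TGCGCNC), and in Mt2 2 metal response elements of the A form (TGCACNC) and 1 of the G form. No marked matches overlap, and none of the 12 motifs was found in the Lrrc38 window. Such letters are common: MCAT was found in 12.6% of all 32851 RefSeq promoter windows, in 10.3% of those of genes called higher in immobilized Sesn1KO muscle and in 10.2% of those called lower. The A form of the metal response element was found in 10.4%, 9.53% and 11.3% of these groups, the G form in 12.5%, 21.7% and 21%, and TGTTCT in 16.1%, 9.79% and 11.7%. The windows of tested genes held MCAT in 10.9%, the A form in 10.4%, the G form in 20.9% and TGTTCT in 10.9%. The other motifs searched, with their share of all windows, were GTAAACA (FoxO core, 3.17%), the heat shock element (0.466%), TGACGTCA (cAMP response element, 1.55%), TGATGNAA (ATF4 element, 3.45%), TCAAGGTCA (ERR element, 0.387%), CAGCTG (E-box, 13.0%), the MEF2 site (2.92%) and the CArG box (1.47%). A match is a run of letters and does not show that a factor binds.

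Csrp3 was measured at 10.2, 19.1, 36.98 and 40.1 normalized counts in the basal libraries and 1453, 596, 1381 and 647 in the immobilized libraries. Every immobilized library lay far above every basal one, and the mean rose 38.3-fold (log2 fold change 5.27, SE 0.40, adjusted p = 4.5e-09). Ankrd1 was measured at 3.99, 7.27, 25.5 and 15.7 normalized counts in the basal libraries and 1241, 436, 435 and 151 in the immobilized libraries, a 43.1-fold higher mean (log2 fold change 5.23, SE 0.54, adjusted p = 2.3e-07). Immobilized replicate 1 was the highest library for both genes and immobilized replicate 4 the lowest for Ankrd1, without overlap with basal muscle. Lrrc38 was measured at 54.1, 54.7, 33.4 and 54.4 normalized counts in the basal libraries and 1.27, 1.37, 3.57 and 3.55 in the immobilized libraries, and its mean fell 20.1-fold (log2 fold change -3.92, SE 0.38, adjusted p = 9.3e-08). Ky was measured at 334, 258, 266 and 325 normalized counts in the basal libraries and 12.9, 15.4, 37.3 and 59.9 in the immobilized libraries, a 9.43-fold lower mean (log2 fold change -3.45, SE 0.38, adjusted p = 5.9e-07). Basal and immobilized libraries did not overlap for any of the 4 markers, which were chosen with earlier results of these data known, nor for Sesn1. Because the added count of 1 compresses low values, fold changes on the log2(value + 1) scale understate the change of genes that are low in 1 group, such as Lrrc38.

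**Figure D1:**
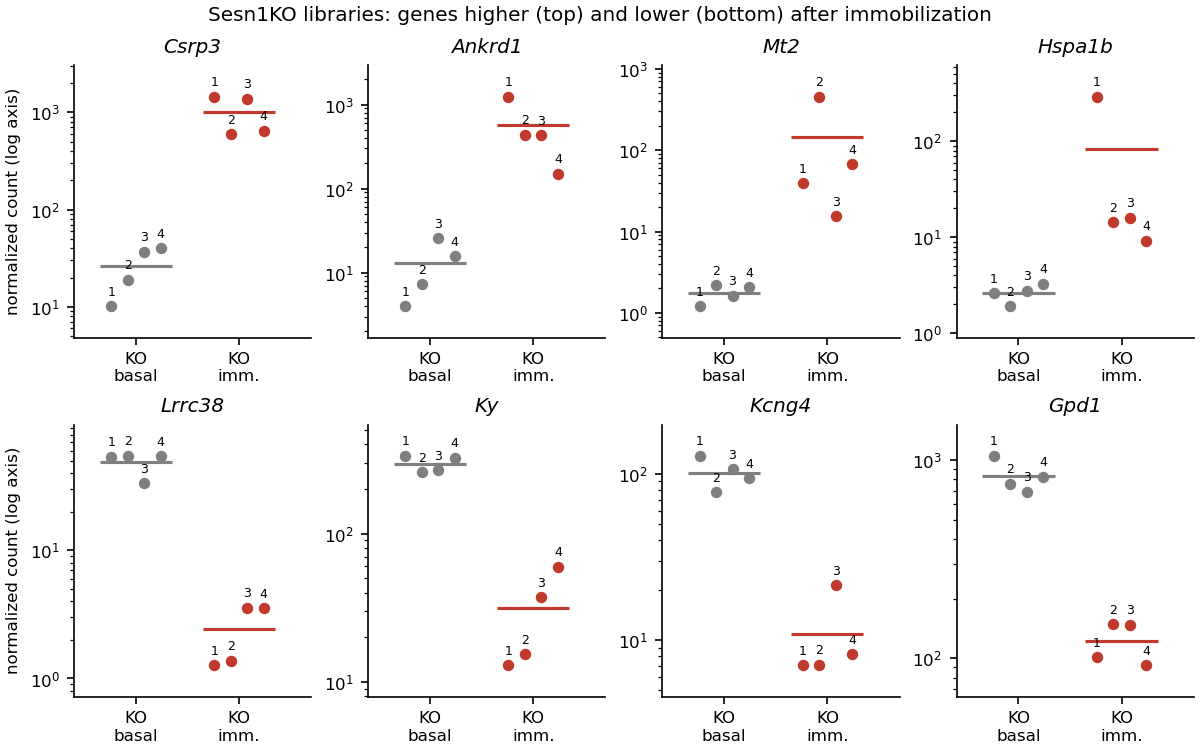
Normalized counts (log axis) of 8 genes in the 4 basal (grey) and 4 immobilized (red) Sesn1KO libraries; numbers are replicates and bars are means. Csrp3, Ankrd1, Mt2 and the HSP70 gene Hspa1b lie higher in every immobilized library, with Mt2 highest in replicate 2 (455) and Hspa1b highest in replicate 1 (291), while Lrrc38, Ky, Kcng4 and Gpd1 lie lower in all of them.

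Of 13629 genes tested, 5054 (37.1%) were called, 2346 higher (17.2%) and 2708 lower (19.9%) in immobilized muscle, where a call needs an adjusted p below 0.05 and a log2 fold change of 0.25 or more in size. The median log2 fold change over all tested genes was -0.03. Counts of list members below are to be read beside these shares of all tested genes, 17.2% higher and 19.9% lower. In 889 genes the log2 fold change was 1 or more in size, 459 upward and 430 downward, and in 78 and 46 genes it was 2 or more. The 4 immobilized libraries lay wholly above the 4 basal ones in 2065 genes (15.2%) and wholly below in 2324 (17.1%), or 32.2% in all, and 3969 of the called genes were among these. In bulk RNA, fewer cells of a type and less RNA per cell cannot be told apart, which applies to every gene described here.

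Beside Csrp3, Ankrd1 and Mt2, the largest increases were those of Eda2r (log2 fold change 4.30, adjusted p = 7.4e-13), a receptor of ectodysplasin A2 and a p53 target, Mustn1 (log2 fold change 4.16, adjusted p = 2.7e-10), Ankrd2 (log2 fold change 4.15, adjusted p = 9.0e-10), Atf3 (log2 fold change 4.07, adjusted p = 3.1e-05) and Hspb1 (log2 fold change 3.49, adjusted p = 3.1e-08). They were followed by Xirp1, Cd68, Hspb7, Rrad, Tnfrsf12a, Otud1 and Gm13889, between 3.45 for Xirp1 and 3.31 for Gm13889. Eda2r, with 8.17, 12.8, 14.96 and 13.1 normalized counts in the basal libraries and 281, 259, 223 and 259 in the immobilized libraries, had the smallest adjusted p of any gene, and its immobilized libraries lay close together. Next by adjusted p among increases were Mknk2 (log2 fold change 2.44, adjusted p = 4.7e-12), a kinase of the initiation factor eIF4E, Myl12a (log2 fold change 2.79, adjusted p = 4.6e-11), a regulatory light chain of non-muscle myosin, and the small GTPase gene Rras (log2 fold change 1.79, adjusted p = 4.2e-10). Rrad, a GTPase that limits calcium channels, was measured at 0.847, 1.64, 1.28 and 2.22 normalized counts in the basal libraries and 83.6, 56.5, 13.9 and 4.93 in the immobilized libraries. Tnfrsf12a, the receptor of the cytokine TWEAK, was measured at 11.4, 11.6, 18.3 and 13.7 normalized counts in the basal libraries and 249, 135, 167 and 81.1 in the immobilized libraries. Both rose without overlap, and in both immobilized replicate 1 was highest and replicate 4 lowest.

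Among decreases beside Lrrc38 and Ky were Kcng4 (log2 fold change -3.23, adjusted p = 4.1e-08), a modulatory potassium channel subunit, Nrep (log2 fold change -3.07, adjusted p = 2.2e-10), the carboxylesterase gene Ces1d (log2 fold change -3.04, adjusted p = 3.0e-09), Mdga1 (log2 fold change -2.98, adjusted p = 2.7e-10), Fam78a (log2 fold change -2.96, adjusted p = 2.7e-10) and the cAMP phosphodiesterase gene Pde4a (log2 fold change -2.95, adjusted p = 5.2e-09). Plcd4, Pnpla3, Gdap1, Gpd1 and G0s2 followed, from -2.92 for Plcd4 to -2.73 for G0s2. Kcng4 was measured at 128, 77.2, 107 and 93.9 normalized counts in the basal libraries and 7.04, 7.11, 21.4 and 8.19 in the immobilized libraries. Nrep was measured at 185, 176, 149 and 177 normalized counts in the basal libraries and 24.05, 15.7, 24.8 and 15.5 in the immobilized libraries. Neither overlapped. G0s2, an inhibitor of the triglyceride lipase encoded by Pnpla2, fell (log2 fold change -2.73, adjusted p = 4.2e-07), whereas Pnpla2 rose (log2 fold change 0.93, adjusted p = 1.0e-05). Gm15501, a transcribed processed pseudogene (log2 fold change -3.45, adjusted p = 0.015, or -2.98 to -2.97 with adjusted p from 0.051 to 0.053 without immobilized replicate 2 or 4), and Gm20721 (log2 fold change -2.94, adjusted p = 5.5e-06) were also among the 15 largest decreases, and reads of a pseudogene can belong to its parent gene. By adjusted p the leading decreases were Pitpnc1 (log2 fold change -1.63, adjusted p = 4.6e-11), Dhrs7c (log2 fold change -1.88, adjusted p = 4.6e-11), a dehydrogenase of the sarcoplasmic reticulum, and Eepd1 (log2 fold change -2.58, adjusted p = 1.3e-10), followed by Nrep and Fam78a.

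**Figure D2:**
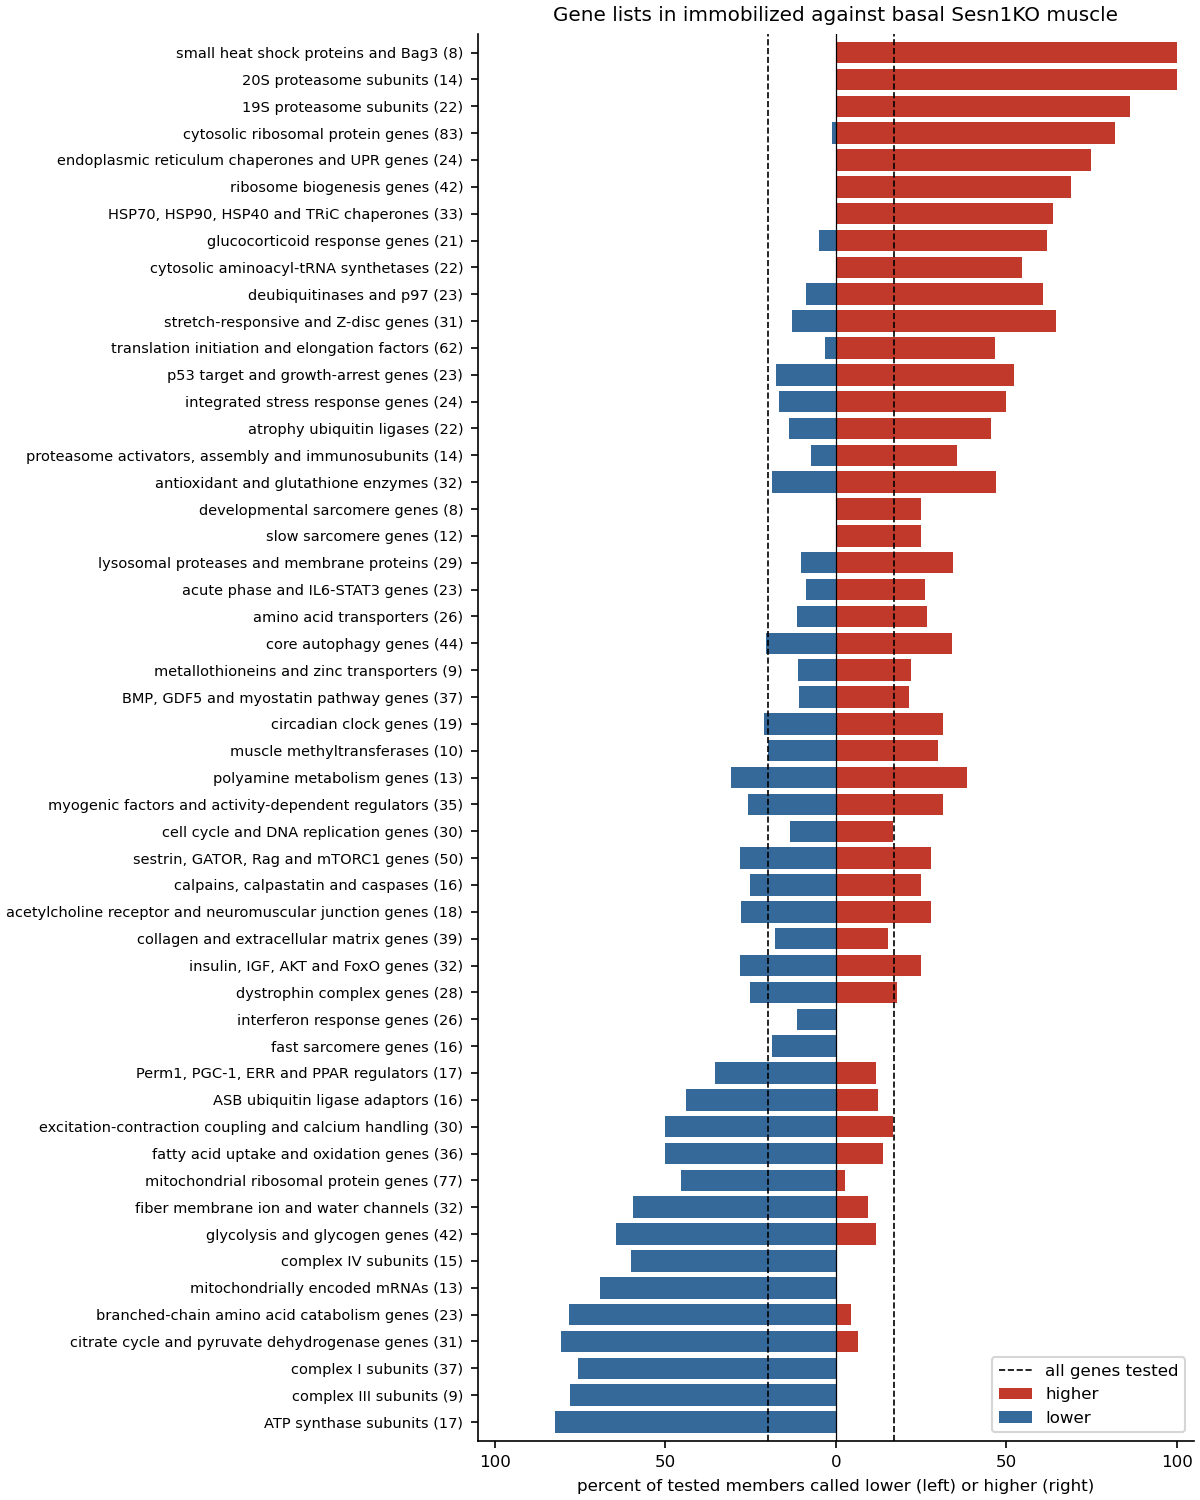
Percent of the tested members of each gene list drawn (number tested in brackets) that were called higher (red, right) or lower (blue, left). The comparison is immobilized against basal Sesn1KO muscle. Dashed lines mark all genes tested, 17.2% higher and 19.9% lower. Marker lists, complex II and the mitochondrial rRNAs are not drawn. The small heat shock, 20S and 19S proteasome and cytosolic ribosomal lists lie furthest to the right. Those of complex I and III, ATP synthase, the citrate cycle and branched-chain catabolism lie furthest to the left.

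Genes of the Z-disc and of the stretch response mostly rose. Of 31 members, 20 were higher and 4 lower, with a median log2 fold change of 0.83 against -0.03 for all genes. Mustn1, a nuclear protein of the musculoskeletal system, was measured at 46.98, 56.3, 75.5 and 71.7 normalized counts in the basal libraries and 1857, 1228, 916 and 749 in the immobilized libraries. Ankrd2, a relative of Ankrd1, was measured at 42.5, 27.7, 76.9 and 46.3 normalized counts in the basal libraries and 1118, 594, 1013 and 683 in the immobilized libraries. Xirp1, an actin-binding repeat protein, was measured at 83.1, 86.4, 115 and 108 normalized counts in the basal libraries and 2443, 895, 1051 and 575 in the immobilized libraries. In all 3 genes every immobilized library was above every basal library, and immobilized replicate 1 was the highest. The members that fell were Ky, the calsarcin gene Myoz3 (log2 fold change -1.46, adjusted p = 4.0e-05), the fast fiber α-actinin gene Actn3 (log2 fold change -0.75, adjusted p = 0.0019) and Myoz1 (log2 fold change -0.74, adjusted p = 5.9e-04), another calsarcin gene, which was named after its values were seen. The groups did not overlap for Myoz3 and overlapped for Actn3 through immobilized replicate 3.

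Most subunits of the proteasome rose. All 14 subunits of its 20S core were higher (median log2 fold change 0.78), as were 19 of 22 subunits of its 19S cap (median 0.79), and none was lower. Psma7, of the core, was measured at 74.4, 78.7, 70.1 and 68.3 normalized counts in the basal libraries and 154, 191, 143 and 201 in the immobilized libraries. Psma7 rose (log2 fold change 1.22, adjusted p = 9.6e-08). Psmd11, of the lid of the cap, was measured at 87.04, 84.7, 83.7 and 89.6 normalized counts in the basal libraries and 379.6, 268, 227 and 243 in the immobilized libraries. Psmd11 rose after immobilization (log2 fold change 1.66, adjusted p = 3.0e-09). Psmd8 was measured at 168, 153, 149 and 136 normalized counts in the basal libraries and 508, 442, 467 and 444 in the immobilized libraries. Psmd8 rose (log2 fold change 1.61, adjusted p = 2.0e-09). Each was higher in all 4 immobilized libraries, and Psma4, Psmb4 and Psmc4 rose by between 1.06 (Psmb4) and 1.29 (Psmc4) on the log2 scale, with 1.07 for Psma4. Of 14 activators, assembly factors and immunosubunits, 5 were higher and 1 lower. The activator Psme4 (log2 fold change 0.73, adjusted p = 3.6e-05), the transcription factor Nfe2l1 that drives proteasome genes (log2 fold change 0.64, adjusted p = 2.8e-04) and the assembly factor Pomp (log2 fold change 0.61, adjusted p = 8.1e-06) rose. The interferon-inducible activator subunit Psme1 fell (log2 fold change -0.71, adjusted p = 5.5e-06).

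Upstream of the proteasome, 10 of 22 ubiquitin ligases tied to atrophy were higher and 3 lower. Trim63, which encodes MuRF1, was measured at 142, 154, 148 and 129 normalized counts in the basal libraries and 274, 737, 334 and 737 in the immobilized libraries and rose without overlap (log2 fold change 1.72, SE 0.28, adjusted p = 5.2e-05). Fbxo40, a ligase of the insulin receptor substrate IRS1, was measured at 364, 377, 369 and 385 normalized counts in the basal libraries and 1278, 701, 746 and 686 in the immobilized libraries. Fbxo40 rose in immobilized muscle (log2 fold change 1.14, adjusted p = 2.7e-06). Fbxo32, which encodes Atrogin1 and was named after its values were seen, was measured at 183, 305, 292 and 238 normalized counts in the basal libraries and 201, 980.2, 288 and 1169 in the immobilized libraries, so that 2 immobilized libraries lay within the basal range and 2 far above it (log2 fold change 1.02, adjusted p = 0.049, or 0.62 to 1.12 with adjusted p from 0.057 to 0.21 without basal replicate 1, 2, 3 or 4 or immobilized replicate 2 or 4). The same 2 libraries, immobilized replicates 2 and 4, were the highest for Trim63 and for Fbxl22 (log2 fold change 1.28, adjusted p = 0.017, or 0.88 to 1.14 with adjusted p from 0.054 to 0.084 without basal replicate 3 or immobilized replicate 2 or 4), whereas Fbxo40 was highest in replicate 1. The ligases that fell were Wwp1 (log2 fold change -0.77, adjusted p = 0.0026), Trim55 (log2 fold change -0.57, adjusted p = 0.0031) and Stub1 (log2 fold change -0.33, adjusted p = 0.027, or -0.30 to -0.25 with adjusted p from 0.071 to 0.1 without basal replicate 1 or 2 or immobilized replicate 1 or 4). A list of 23 genes, of deubiquitinases, the segregase p97 and also the ubiquitin-conjugating enzyme Ube2b, had 14 higher and 2 lower members. The lower ones were Uchl3 (-0.34) and Ube2b itself (-0.31 in log2 fold change). Their count was 0 without basal replicate 1, 2 or 3 or immobilized replicate 1, and 1 without immobilized replicate 2 or 4. Usp28 was measured at 54.2, 51.96, 59.1 and 54.7 normalized counts in the basal libraries and 364, 206, 205 and 165 in the immobilized libraries. Usp28 rose (log2 fold change 2.01, adjusted p = 1.1e-08). The p97 cofactor genes Ubxn4 (log2 fold change 1.49, adjusted p = 1.3e-09) and Nploc4 (log2 fold change 1.21, adjusted p = 5.6e-08) rose as well. Among 16 ASB genes, adaptors of cullin ligases, 7 fell and 2 rose (1 without basal replicate 1 or immobilized replicate 1), with Asb5 at 180.3, 163, 161 and 155 normalized counts in the basal libraries and 881, 529, 313 and 254 in the immobilized libraries (log2 fold change 1.41, adjusted p = 2.4e-04) and Asb18 (log2 fold change -1.67, adjusted p = 4.0e-07), Asb15 (log2 fold change -1.09, adjusted p = 1.4e-04) and Asb4 (log2 fold change -0.98, adjusted p = 0.0011) on the falling side.

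Of 44 core autophagy genes 15 were higher (34.1%) and 9 lower (20.5%), with a median log2 fold change of 0.16. Over all tested genes the shares were 17.2% and 19.9%, so the lower share was near that of all genes. Gabarapl1, an LC3-like protein of the autophagosome membrane, was measured at 27.6, 35.1, 30.8 and 30.7 normalized counts in the basal libraries and 187, 115, 68.5 and 75.8 in the immobilized libraries. Gabarapl1 rose after immobilization (log2 fold change 1.70, adjusted p = 1.4e-06). The cargo receptor Sqstm1, or p62, was measured at 358, 385, 402 and 369 normalized counts in the basal libraries and 1063, 1070.0, 683 and 1039 in the immobilized libraries. Sqstm1 rose (log2 fold change 1.32, adjusted p = 8.3e-07). Both rose without overlap, as did the endoplasmic reticulum receptor gene Fam134b (log2 fold change 1.17, adjusted p = 6.4e-04). Atg4c (log2 fold change -0.72, adjusted p = 0.0026), the initiating kinase gene Ulk2 (log2 fold change -0.68, adjusted p = 3.5e-04) and Atg10 (log2 fold change -0.66, adjusted p = 0.0014) fell without overlap. Among 29 lysosomal genes 10 were higher and 3 lower (5 without immobilized replicate 4), led by the membrane protein gene Cd63 (log2 fold change 1.44, adjusted p = 1.1e-08) and the protease gene Ctsz (log2 fold change 0.95, adjusted p = 2.7e-06). Lgmn was called on all libraries but rested on immobilized replicate 2 (35.8, 115, 27.3 and 35.9 normalized counts in immobilized muscle; log2 fold change 0.90, adjusted p = 0.018, or 0.45 with adjusted p = 0.057 without immobilized replicate 2). The protease genes Ctsc (log2 fold change -0.76, adjusted p = 0.0022), Ctsa (log2 fold change -0.40, adjusted p = 6.7e-04) and Tpp1 (log2 fold change -0.37, adjusted p = 0.007) fell.

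Most chaperone genes rose, and immobilized replicate 1 stood apart in them. All 8 members of the list of small heat shock protein genes and Bag3 were higher (median log2 fold change 1.60). Hspb1 was measured at 53.03, 49.8, 63.9 and 62.5 normalized counts in the basal libraries and 1612, 533, 573 and 358 in the immobilized libraries. Hspb7 was measured at 188, 236, 481 and 299 normalized counts in the basal libraries and 4577, 2295, 3035 and 2535 in the immobilized libraries. Cryab, or αB-crystallin, was measured at 307, 308, 563 and 359 normalized counts in the basal libraries and 3659.9, 1414, 1732 and 1189 in the immobilized libraries. Cryab rose in immobilized muscle (log2 fold change 2.28, adjusted p = 7.3e-07). None of these overlapped, and replicate 1 was highest in all of them. Hspb8 (log2 fold change 1.99, adjusted p = 2.9e-07) and its partner Bag3 (log2 fold change 1.09, adjusted p = 5.8e-05), Hspb3 (log2 fold change 1.22, adjusted p = 5.2e-06), Hspb2 (log2 fold change 0.76, adjusted p = 1.8e-04) and Hspb6 (log2 fold change 0.68, adjusted p = 5.0e-04) also rose. Of 33 genes of the HSP70, HSP90, HSP40 and TRiC families, 21 were higher and 0 lower (1 without immobilized replicate 1 or 3).

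The inducible HSP70 genes Hspa1a and Hspa1b are near-identical copies whose reads can be split between them. Hspa1b was measured at 2.62, 1.92, 2.77 and 3.27 normalized counts in the basal libraries and 291, 14.4, 15.9 and 9.21 in the immobilized libraries. Hspa1b rose (log2 fold change 3.04, SE 0.65, adjusted p = 8.3e-04, or 1.94 with adjusted p = 3.9e-05 without immobilized replicate 1). Hspa1a was measured at 3.38, 4.86, 6.64 and 3.47 normalized counts in the basal libraries and 283, 13.2, 13.7 and 9.99 in the immobilized libraries. Hspa1a rose after immobilization (log2 fold change 2.39, SE 0.64, adjusted p = 0.0056, or 1.28 with adjusted p = 0.0011 without immobilized replicate 1). Immobilized replicate 1 lay far above the other 3 immobilized libraries for both genes, and these 3 still lay above every basal library. Hsp90aa1 was measured at 36.2, 36.04, 42.3 and 39.6 normalized counts in the basal libraries and 295, 107, 92.5 and 97.8 in the immobilized libraries (log2 fold change 1.73, adjusted p = 5.7e-06), again highest in replicate 1. What set this library apart was not tested.

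Genes of the endoplasmic reticulum stress response rose, with 18 of 24 higher and none lower (median log2 fold change 0.63). Xbp1, a transcription factor of this response, was measured at 37.3, 36.4, 38.2 and 41.2 normalized counts in the basal libraries and 109.7, 82.3, 53.1 and 72.7 in the immobilized libraries. Xbp1 rose (log2 fold change 0.99, adjusted p = 2.9e-05). The chaperone genes Dnajb9 (log2 fold change 1.01, adjusted p = 8.3e-04) and Hspa5, or BiP (log2 fold change 0.88, adjusted p = 0.0011), rose without overlap. Of 24 integrated stress response genes 12 were higher and 4 lower. Atf3 was measured at 1.40, 2.83, 2.88 and 5.48 normalized counts in the basal libraries and 317, 63.9, 58.7 and 13.9 in the immobilized libraries, so that replicate 1 was highest and replicate 4 lowest among immobilized libraries, all of them above basal muscle. The mitochondrial one-carbon enzyme gene Mthfd2 was measured at 1.94, 3.04, 3.14 and 3.63 normalized counts in the basal libraries and 21.7, 24.3, 19.4 and 15.8 in the immobilized libraries. Mthfd2 rose in immobilized muscle (log2 fold change 2.44, adjusted p = 5.6e-09). The phosphatase subunit gene Ppp1r15a rose (log2 fold change 2.10, adjusted p = 1.1e-06). Ddit3, which encodes CHOP (log2 fold change -0.82, adjusted p = 0.0011), the serine synthesis gene Psph (log2 fold change -0.84, adjusted p = 1.4e-04) and Nupr1 (log2 fold change -0.91, adjusted p = 0.0022) fell without overlap.

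Of 23 p53 target and growth-arrest genes, 12 were higher and 4 lower. Gadd45a was measured at 14.6, 13.5, 12.8 and 13.2 normalized counts in the basal libraries and 81.7, 88.5, 33.00 and 61.4 in the immobilized libraries (log2 fold change 2.12, adjusted p = 2.5e-07) and Btg2 at 14.3, 8.82, 18.4 and 8.19 normalized counts in the basal libraries and 72.7, 56.4, 51.05 and 31.5 in the immobilized libraries (log2 fold change 2.02, adjusted p = 6.8e-05), neither with overlap. Gadd45b, a relative of Gadd45a (log2 fold change -0.98, adjusted p = 0.0026), the cyclin gene Ccng1 (log2 fold change -0.72, adjusted p = 9.8e-05) and Trp53inp2 (log2 fold change -0.70, adjusted p = 2.0e-04) fell. Antioxidant and glutathione genes divided into 15 higher and 6 lower of 32. The sulfiredoxin gene Srxn1 was measured at 18.1, 19.4, 21.5 and 19.8 normalized counts in the basal libraries and 283, 169, 91.4 and 90.4 in the immobilized libraries. Srxn1 rose (log2 fold change 2.78, adjusted p = 1.9e-08). The glutathione genes Gsr (log2 fold change 1.25, adjusted p = 8.3e-07) and Gclm (log2 fold change 1.10, adjusted p = 2.2e-05) rose. The mitochondrial superoxide dismutase gene Sod2 was measured at 366, 324, 396 and 376 normalized counts in the basal libraries and 197, 180.1, 194 and 186 in the immobilized libraries and fell without overlap (log2 fold change -0.94, adjusted p = 1.7e-08), as did Gsta4 (log2 fold change -1.07, adjusted p = 1.8e-05) and Gstm1 (log2 fold change -0.61, adjusted p = 2.9e-04).

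Metallothioneins bind zinc and copper and are induced by metals and glucocorticoids. Mt2 was measured at 1.21, 2.20, 1.63 and 2.08 normalized counts in the basal libraries and 39.5, 455, 15.5 and 67.4 in the immobilized libraries. Mt2 rose after immobilization (log2 fold change 4.62, SE 0.62, adjusted p = 6.2e-06). Mt1 was measured at 2.74, 3.70, 8.13 and 4.27 normalized counts in the basal libraries and 24.2, 349, 10.6 and 67.6 in the immobilized libraries. Mt1 rose (log2 fold change 3.25, SE 0.62, adjusted p = 2.8e-04). Both were higher in every immobilized library, lowest in replicate 3 and highest in replicate 2 among these libraries. Mt3 reached 0.959, 21.2, 0.269 and 0.842 in immobilized muscle against 0.351, 0.414, 0.374 and 0.456 in basal muscle and was not called (log2 fold change 1.18, adjusted p = 0.087, or 1.62 with adjusted p = 0.02 without immobilized replicate 3). The zinc importer gene Slc39a14 was likewise highest in immobilized replicate 2 (25.4, 93.8, 11.7 and 17.6) and was not called (log2 fold change 0.87, adjusted p = 0.067, or 1.07 to 1.25 with adjusted p from 0.0064 to 0.038 without immobilized replicate 3 or 4), and 4 other genes of zinc handling were not called. Slc39a8 was lower at values near 1 (log2 fold change -0.46, adjusted p = 0.033, or -0.48 to -0.41 with adjusted p from 0.052 to 0.085 without basal replicate 1, 3 or 4 or immobilized replicate 3 or 4).

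Immobilized replicate 2 was also the highest library for acute phase genes. Lcn2, or lipocalin 2, was measured at 0.581, 0.200, 1.29 and 0.300 normalized counts in the basal libraries and 2.68, 40.97, 3.62 and 4.59 in the immobilized libraries (log2 fold change 2.37, adjusted p = 0.0033, or 1.57 with adjusted p = 0.011 without immobilized replicate 2). Serpina3n, a protease inhibitor gene, was measured at 0.622, 1.42, 2.01 and 1.00 normalized counts in the basal libraries and 13.5, 64.5, 2.44 and 36.4 in the immobilized libraries (log2 fold change 3.08, adjusted p = 0.0015). Timp1, an inhibitor of matrix proteases, was measured at 0.228, 0.367, 3.34 and 0.157 normalized counts in the basal libraries and 5.29, 22.5, 1.22 and 4.22 in the immobilized libraries. Timp1 rose in immobilized muscle (log2 fold change 1.92, adjusted p = 0.0074). Lcn2 and Serpina3n did not overlap between groups, and Timp1 did. Of 23 acute phase and IL6-STAT3 genes 6 were higher and 2 lower, the latter being the receptor gene Lifr (log2 fold change -1.07, adjusted p = 9.0e-06) and Socs2 (log2 fold change -0.99, adjusted p = 2.5e-04). Of 26 interferon response genes none was higher and 3 were lower (5 without immobilized replicate 1), among them Ifit1 (log2 fold change -0.74, adjusted p = 0.0056) and Ifit3 (log2 fold change -0.88, adjusted p = 0.014, or -0.56 with adjusted p = 0.072 without immobilized replicate 2). Macrophage markers, which summed to 69.3 to 101 in basal libraries, summed to 221, 427, 74.1 and 122 in immobilized ones, so replicate 2 was highest here too. Their part in these results was not tested.

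Of 50 genes of the sestrin and mTORC1 network 14 were higher and 14 lower (median log2 fold change 0.08). This is 28% each, against 17.2% and 19.9% of all tested genes. Eif4ebp1, the translation repressor that mTORC1 phosphorylates, was measured at 28.1, 28.4, 24.3 and 21.3 normalized counts in the basal libraries and 86.8, 187, 84.8 and 178 in the immobilized libraries. Eif4ebp1 rose (log2 fold change 2.26, SE 0.21, adjusted p = 5.7e-08). Ddit4, or REDD1, an inhibitor of mTORC1, was measured at 3.68, 4.89, 5.67 and 7.15 normalized counts in the basal libraries and 18.1, 18.2, 6.39 and 15.9 in the immobilized libraries. Ddit4 rose after immobilization (log2 fold change 1.23, adjusted p = 0.0038). Its relative Ddit4l was measured at 262, 254, 257 and 232 normalized counts in the basal libraries and 34.2, 67.3, 53.4 and 64.9 in the immobilized libraries. Ddit4l fell (log2 fold change -2.22, adjusted p = 4.8e-06). Ddit4 rose with an overlap through immobilized replicate 3, and Ddit4l fell in all 4 immobilized libraries. The mTOR-binding inhibitor gene Deptor (log2 fold change -1.09, adjusted p = 5.9e-04) and Prkag3, an AMPK subunit gene (log2 fold change -1.18, adjusted p = 0.0029), fell.

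Insulin, IGF, AKT and FoxO genes gave 8 higher (25%) and 9 lower (28.1%) of 32. Pdpk1, the kinase that phosphorylates AKT, was measured at 39.6, 38.9, 37.6 and 41.9 normalized counts in the basal libraries and 101, 98.2, 107 and 86.2 in the immobilized libraries and Foxo1 at 13.6, 15.5, 14.6 and 14.9 normalized counts in the basal libraries and 23.5, 41.6, 24.1 and 35.8 in the immobilized libraries. Both rose without overlap (log2 fold change 1.29, adjusted p = 6.5e-10 for Pdpk1 and log2 fold change 1.00, adjusted p = 1.3e-04 for Foxo1), and so did Akt1 (log2 fold change 0.90, adjusted p = 5.5e-04), which like Foxo1 was highest in immobilized replicates 2 and 4. Foxo6, a FoxO gene of low level, was measured at 7.90, 6.25, 5.63 and 6.81 normalized counts in the basal libraries and 1.28, 0.470, 1.71 and 0.651 in the immobilized libraries. Foxo6 fell in immobilized muscle (log2 fold change -1.95, adjusted p = 3.7e-08). The gene of the glucose transport regulator Tbc1d4 (log2 fold change -1.73, adjusted p = 7.9e-06) and the PI3-kinase gene Pik3cd (log2 fold change -1.45, adjusted p = 9.5e-07) fell.

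Most cytosolic ribosomal protein genes and many translation genes rose. Of 83 cytosolic ribosomal protein genes 68 were higher and 1 lower (median log2 fold change 0.40). The muscle-specific Rpl3l, a paralog of Rpl3, was the exception, measured at 593, 553, 512 and 513 normalized counts in the basal libraries and 247, 226, 271 and 234 in the immobilized libraries. Rpl3l fell (log2 fold change -1.15, adjusted p = 3.6e-08). Rpl3 was measured at 34.02, 38.00, 35.7 and 34.8 normalized counts in the basal libraries and 181, 177, 143 and 112 in the immobilized libraries. Rpl3 rose after immobilization (log2 fold change 2.05, adjusted p = 2.8e-08). Both were separated between groups in opposite directions. Rpl10 (log2 fold change 1.12, adjusted p = 0.0018) and Rps28 (log2 fold change 1.02, adjusted p = 2.2e-06) were the next increases, and reads of ribosomal protein genes can be shared with their many pseudogenes. Among 42 ribosome biogenesis genes 29 were higher and none lower, led by Tsr1 (log2 fold change 1.07, adjusted p = 8.3e-07), Gnl3 (log2 fold change 1.06, adjusted p = 9.9e-07) and Ddx21 (log2 fold change 0.97, adjusted p = 2.4e-07). Of 62 initiation and elongation factors 29 were higher, such as the helicase gene Eif4a1 (log2 fold change 1.20, adjusted p = 4.7e-07) and Eif6 (log2 fold change 0.88, adjusted p = 4.8e-05), and 2 were lower (4 without immobilized replicate 3), namely the cap-binding protein gene Eif4e (log2 fold change -0.67, adjusted p = 2.9e-05) and Eif1ax (log2 fold change -0.37, adjusted p = 5.4e-04).

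Cytosolic aminoacyl-tRNA synthetases, which charge tRNAs, had 12 of 22 members higher and none lower, with Eprs at 239, 239, 228 and 243 normalized counts in the basal libraries and 525, 436, 533 and 529.7 in the immobilized libraries. Eprs rose (log2 fold change 1.08, adjusted p = 1.6e-08). Vars (log2 fold change 0.82, adjusted p = 3.7e-06) and the leucyl-tRNA synthetase gene Lars (log2 fold change 0.62, adjusted p = 6.6e-05) rose as well. Of 26 amino acid transporter genes 7 were higher and 3 lower (1 without basal replicate 3). The glutamine carrier gene Slc38a2 was measured at 112, 103, 107 and 113 normalized counts in the basal libraries and 335, 280.1, 221 and 225 in the immobilized libraries. Slc38a2 rose in immobilized muscle (log2 fold change 1.26, adjusted p = 4.2e-06). Slc7a1 (log2 fold change 1.31, adjusted p = 8.4e-07) and the leucine carrier gene Slc7a5 (log2 fold change 1.18, adjusted p = 1.3e-04) rose from low levels. Slc43a1 fell without overlap (log2 fold change -0.94, adjusted p = 0.0021).

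**Figure D3:**
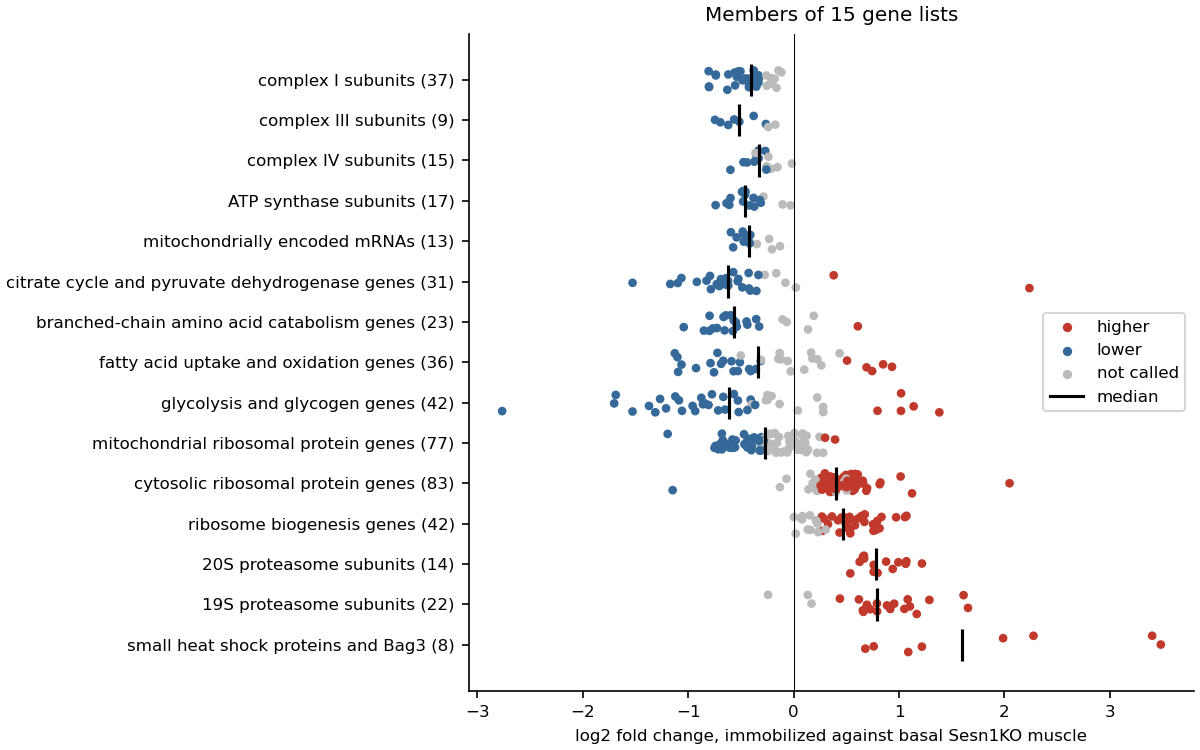
Log2 fold change (immobilized against basal Sesn1KO muscle) of each tested member of 15 gene lists, coloured by the call, with the list's median as a black bar. Medians lie at -0.40 for complex I and -0.62 for the citrate cycle, and at 0.78 for the 20S proteasome and 1.60 for small heat shock proteins.

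Genes of oxidative metabolism fell in every complex. Lower were 28 of 37 subunits of complex I (median log2 fold change -0.40), all 4 of complex II, 7 of 9 of complex III, 9 of 15 of complex IV (5 without basal replicate 3 or immobilized replicate 2 or 4) and 14 of 17 of the ATP synthase, and no subunit was higher. Ndufs1, a core subunit of complex I, was measured at 585, 575, 595 and 558 normalized counts in the basal libraries and 349.9, 293, 371 and 316 in the immobilized libraries. Ndufs1 fell (log2 fold change -0.80, adjusted p = 3.5e-07). Sdhd, a membrane anchor of succinate dehydrogenase, was measured at 308, 292, 341 and 278 normalized counts in the basal libraries and 142, 141, 168 and 132 in the immobilized libraries. Sdhd fell after immobilization (log2 fold change -1.06, adjusted p = 5.5e-09). Atp5a1 was measured at 2817, 2779, 3048 and 2866 normalized counts in the basal libraries and 1759, 1647, 1830.1 and 1656 in the immobilized libraries. Atp5a1 fell (log2 fold change -0.74, adjusted p = 6.9e-07). None of the 3 overlapped, and their spread within groups was small beside the change. Cyc1 (log2 fold change -0.75, adjusted p = 9.7e-07), Cox8b (log2 fold change -0.60, adjusted p = 9.9e-04) and Cox5a (log2 fold change -0.44, adjusted p = 0.0012) fell likewise.

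The 13 mRNAs encoded in the mitochondrial genome, a list added after the values were seen, gave 9 lower and none higher (median -0.42), with mt-Co2 (log2 fold change -0.59, adjusted p = 0.0021), mt-Co3 (log2 fold change -0.57, adjusted p = 0.0051) and mt-Nd1 (log2 fold change -0.54, adjusted p = 0.0031) among them. The mitochondrial rRNA mt-Rnr1, on the other hand, was measured at 1710.4, 1394, 1728 and 1303 normalized counts in the basal libraries and 2653, 1985, 2932 and 1857 in the immobilized libraries and rose without overlap (log2 fold change 0.60, adjusted p = 0.0011). The other rRNA, mt-Rnr2, overlapped (log2 fold change 0.21, adjusted p = 0.16, or 0.29 with adjusted p = 0.048 without immobilized replicate 4). Of 77 nuclear genes for mitochondrial ribosomal proteins 35 were lower and 2 higher (1 without basal replicate 2 or immobilized replicate 1 or 3 and 0 without basal replicate 4), led by Mrpl34 at 31.5, 28.6, 37.5 and 33.4 normalized counts in the basal libraries and 13.5, 12.9, 16.7 and 12.02 in the immobilized libraries (log2 fold change -1.19, adjusted p = 3.1e-06), Mrps36 (log2 fold change -0.75, adjusted p = 4.3e-05) and Mrpl18 (log2 fold change -0.74, adjusted p = 2.1e-05).

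Citrate cycle and pyruvate dehydrogenase genes fell in 25 of 31 cases and rose in 2 (1 without basal replicate 3 or 4 or immobilized replicate 2 or 3), with a median of -0.62. Idh3a, the catalytic subunit of NAD-dependent isocitrate dehydrogenase, was measured at 843, 812, 889.7 and 857 normalized counts in the basal libraries and 350.5, 369.9, 435 and 358 in the immobilized libraries. Idh3a fell in immobilized muscle (log2 fold change -1.17, adjusted p = 8.3e-10). Idh2 was measured at 123, 179, 195 and 183 normalized counts in the basal libraries and 62.9, 49.5, 48.7 and 71.7 in the immobilized libraries. Idh2 fell (log2 fold change -1.53, adjusted p = 5.4e-06). Pyruvate dehydrogenase is inactivated by kinases such as PDK4 and activated by the phosphatase PDP1, and their genes moved in opposite directions. Pdk4 was measured at 236, 209, 495 and 228 normalized counts in the basal libraries and 1395, 2046, 1009 and 973 in the immobilized libraries. Pdk4 rose after immobilization (log2 fold change 2.24, SE 0.27, adjusted p = 1.4e-06). Pdp1 was measured at 119.8, 100.3, 114 and 91.2 normalized counts in the basal libraries and 41.3, 47.4, 50.1 and 57.8 in the immobilized libraries. Pdp1 fell (log2 fold change -1.10, SE 0.11, adjusted p = 8.6e-08). Neither overlapped between groups. In branched-chain amino acid catabolism 18 of 23 genes were lower, including the phosphatase gene Ppm1k (log2 fold change -1.04, adjusted p = 4.8e-05), Oxct1 (log2 fold change -0.85, adjusted p = 2.4e-04) and Aldh6a1 (log2 fold change -0.80, adjusted p = 4.4e-05). The aminotransferase gene Bcat1 was the 1 member called higher (0 without basal replicate 1, 2 or 4 or immobilized replicate 1 or 2), measured at 0.0389, 0.169, 0.403 and 0.256 normalized counts in the basal libraries and 0.717, 2.43, 0.275 and 0.543 in the immobilized libraries (log2 fold change 0.61, adjusted p = 0.047, or 0.54 to 0.64 with adjusted p from 0.061 to 0.12 without basal replicate 1, 2 or 4 or immobilized replicate 1).

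In fatty acid uptake and oxidation 18 of 36 genes were lower and 5 higher (3 without immobilized replicate 2). Acaa2 was measured at 162, 165, 216 and 184 normalized counts in the basal libraries and 86.5, 68.6, 94.8 and 80.9 in the immobilized libraries. Acaa2 fell in immobilized muscle (log2 fold change -1.13, adjusted p = 8.1e-07). Lpl, the lipoprotein lipase gene, was measured at 279.6, 375, 469 and 390.3 normalized counts in the basal libraries and 170.2, 172, 148 and 209.7 in the immobilized libraries. Lpl fell (log2 fold change -1.10, adjusted p = 2.1e-05). Both fell in all 4 immobilized libraries, as did Eci1 (log2 fold change -1.10, adjusted p = 8.0e-08), while Cpt1a rose (log2 fold change 0.75, adjusted p = 0.0027). Glycolysis and glycogen genes gave 27 lower and 5 higher of 42 (median -0.61). Gpd1, which makes glycerol 3-phosphate, was measured at 1047, 759.8, 692 and 821 normalized counts in the basal libraries and 101, 149, 148 and 92.2 in the immobilized libraries. Gpd1 fell after immobilization (log2 fold change -2.77, adjusted p = 1.7e-09). The phosphorylase kinase gene Phkg1 was measured at 625, 533, 442 and 507 normalized counts in the basal libraries and 161, 152, 195 and 144 in the immobilized libraries. Phkg1 fell (log2 fold change -1.69, adjusted p = 9.3e-08). Pfkfb1 fell too (log2 fold change -1.70, adjusted p = 9.6e-09). The glycogen branching enzyme gene Gbe1 was measured at 85.4, 86.99, 108 and 94.9 normalized counts in the basal libraries and 265, 261, 206 and 254 in the immobilized libraries and rose (log2 fold change 1.38, adjusted p = 1.0e-09), as did Pfkfb4 (log2 fold change 1.14, adjusted p = 9.5e-07) and the glucose transporter gene Slc2a1 (log2 fold change 1.02, adjusted p = 0.0036).

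Regulators of oxidative metabolism gave 6 lower and 2 higher of 17. Perm1, a muscle regulator induced by PGC-1 and ERR, was measured at 352, 342, 418 and 357 normalized counts in the basal libraries and 147, 131, 170.2 and 130.4 in the immobilized libraries. Perm1 fell in immobilized muscle (log2 fold change -1.34, adjusted p = 4.5e-08). Rxrg (log2 fold change -1.23, adjusted p = 9.9e-07) and Ppara (log2 fold change -0.97, adjusted p = 0.0038) fell as well. The corepressor gene Nrip1 was measured at 25.3, 25.2, 26.04 and 25.4 normalized counts in the basal libraries and 51.4, 76.1, 78.2 and 53.4 in the immobilized libraries. Nrip1 rose (log2 fold change 1.29, adjusted p = 9.5e-07). Perm1 and Nrip1 did not overlap between groups, and they moved in opposite directions.

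Most channel genes of the fiber membrane fell. Of 32 channel genes 19 were lower and 3 higher (1 without basal replicate 4 or immobilized replicate 3), with a median of -0.60. Beside Lrrc38 and Kcng4, the water channel gene Aqp4 was measured at 77.6, 69.2, 87.7 and 76.5 normalized counts in the basal libraries and 20.8, 6.29, 22.00 and 8.12 in the immobilized libraries. Aqp4 fell after immobilization (log2 fold change -2.54, adjusted p = 2.4e-04). Kcnn3, a calcium-activated potassium channel gene, was measured at 2.86, 3.39, 3.39 and 3.50 normalized counts in the basal libraries and 14.9, 7.52, 4.86 and 10.97 in the immobilized libraries and rose (log2 fold change 1.21, adjusted p = 2.1e-04). Among 30 genes of excitation-contraction coupling 15 were lower and 5 higher (median -0.35). Camk2a (log2 fold change -1.35, adjusted p = 3.8e-06), the inositol trisphosphate receptor gene Itpr1 (log2 fold change -1.18, adjusted p = 1.5e-08) and the calcium buffer gene Pvalb (log2 fold change -1.13, adjusted p = 8.8e-05) fell without overlap. Casq2, the slow-type calsequestrin gene, was measured at 42.2, 43.8, 73.1 and 48.4 normalized counts in the basal libraries and 120.2, 66.1, 169.8 and 117 in the immobilized libraries. Casq2 rose (log2 fold change 1.13, adjusted p = 0.003). The calcium channel subunit gene Cacng1 rose (log2 fold change 0.84, adjusted p = 2.0e-06).

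At the neuromuscular junction 5 of 18 genes were higher and 5 lower. Musk, the receptor kinase that organizes the postsynaptic membrane, was measured at 6.18, 7.54, 4.89 and 5.81 normalized counts in the basal libraries and 47.5, 34.00, 22.8 and 28.4 in the immobilized libraries. Musk rose in immobilized muscle (log2 fold change 2.23, adjusted p = 1.2e-08). The acetylcholine receptor subunit gene Chrnb1 was measured at 25.01, 26.04, 25.8 and 24.5 normalized counts in the basal libraries and 56.1, 60.1, 68.9 and 55.8 in the immobilized libraries. Chrnb1 rose (log2 fold change 1.21, adjusted p = 1.4e-08). Chrne, the adult subunit, was measured at 10.2, 14.3, 8.36 and 11.3 normalized counts in the basal libraries and 1.98, 3.22, 4.22 and 2.53 in the immobilized libraries. Chrne fell after immobilization (log2 fold change -1.60, adjusted p = 8.5e-04). Acetylcholinesterase genes fell, with Ache at 53.5, 51.2, 33.9 and 51.9 normalized counts in the basal libraries and 9.52, 9.74, 19.1 and 10.97 in the immobilized libraries (log2 fold change -1.90, adjusted p = 9.2e-06) and its collagen tail gene Colq (log2 fold change -1.33, adjusted p = 0.013, or -0.97 with adjusted p = 0.059 without immobilized replicate 1). Chrnb1 and Chrne were thus separated in opposite directions.

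Of 35 myogenic and activity-dependent regulators 11 were higher and 9 lower. The transcription factor gene Runx1 was measured at 1.29, 1.21, 1.23 and 1.48 normalized counts in the basal libraries and 22.7, 21.3, 9.61 and 7.29 in the immobilized libraries (log2 fold change 2.67, adjusted p = 4.5e-08). Rcan1, a calcineurin inhibitor, was measured at 56.4, 52.02, 62.5 and 57.3 normalized counts in the basal libraries and 495, 301, 326 and 157 in the immobilized libraries. Rcan1 rose (log2 fold change 2.35, adjusted p = 8.8e-08). Myc was measured at 1.86, 1.08, 1.96 and 1.51 normalized counts in the basal libraries and 13.9, 18.7, 9.71 and 8.17 in the immobilized libraries. Myc rose in immobilized muscle (log2 fold change 2.34, adjusted p = 4.1e-08). All rose without overlap. The deacetylase gene Hdac9 (log2 fold change -1.42, adjusted p = 8.6e-06), Dach2 (log2 fold change -1.11, adjusted p = 0.0018) and Nr4a1 (log2 fold change -1.22, adjusted p = 0.028, or -1.22 to -1.13 with adjusted p from 0.053 to 0.065 without basal replicate 2 or 3 or immobilized replicate 2 or 4) fell.

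Of 8 fiber markers 4 were lower and 0 higher. Sarcomere genes of the fast type were mostly not called, with 0 higher (1 without basal replicate 3 and 2 without immobilized replicate 2) and 3 lower (5 without immobilized replicate 3) of 16. The lower ones were Mylk2 at 1011, 1123, 941 and 927 normalized counts in the basal libraries and 332, 382, 431 and 618 in the immobilized libraries (log2 fold change -1.22, adjusted p = 1.2e-05), Mybpc2 (log2 fold change -0.75, adjusted p = 0.0013) and Actn3. Of 12 slow sarcomere genes, Myom3 was measured at 7.69, 29.8, 20.8 and 23.7 normalized counts in the basal libraries and 219, 83.6, 200.4 and 166 in the immobilized libraries (log2 fold change 3.02, adjusted p = 5.8e-07) and rose, as did Myoz2 (log2 fold change 1.55, adjusted p = 2.7e-04) and Myl6b (log2 fold change 1.11, adjusted p = 7.4e-04). The slow myosin and troponin genes did not pass the test with all libraries, with log2 fold changes of -0.39 for Myl2, -0.26 for Tnnt1, 0.45 for Tnni1 and, for Myh7, -0.95, or -1.52 with adjusted p = 0.021 without basal replicate 3. Of 8 genes listed as developmental 2 were higher (1 without basal replicate 1, 2 or 3 or immobilized replicate 1 or 2) and 6 were not called. The higher ones were Myl12a, the non-muscle light chain gene described above, and Mybph (log2 fold change 1.78, adjusted p = 0.026, or 1.41 to 1.71 with adjusted p from 0.054 to 0.088 without basal replicate 1, 2 or 3 or immobilized replicate 1, 2 or 3).

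Of 21 glucocorticoid response genes 13 were higher (median 0.71). Beside Mt2 and Mt1, which the list also holds, Angptl4, an inhibitor of lipoprotein lipase, was measured at 2.84, 1.96, 2.10 and 2.14 normalized counts in the basal libraries and 24.8, 35.1, 10.8 and 15.9 in the immobilized libraries. Angptl4 rose (log2 fold change 2.68, adjusted p = 5.2e-07). The member that fell was the glucocorticoid receptor gene Nr3c1 (log2 fold change -0.59, adjusted p = 4.0e-05), with a count of 2 without immobilized replicate 4. Clock genes gave 6 higher and 4 lower (2 without basal replicate 2 or immobilized replicate 1) of 19, and the hours at which muscles were taken are not given in the sources used here. Per1 was measured at 8.52, 9.14, 11.4 and 11.5 normalized counts in the basal libraries and 56.8, 60.3, 29.6 and 65.8 in the immobilized libraries. Per1 rose after immobilization (log2 fold change 2.23, adjusted p = 1.3e-06). Cry2 (log2 fold change 1.25, adjusted p = 1.2e-06) and Arntl (log2 fold change 0.98, adjusted p = 0.0072) rose, while Bhlhe40 (log2 fold change -1.29, adjusted p = 1.9e-04) and Hlf (log2 fold change -1.10, adjusted p = 2.4e-05) fell.

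Polyamine genes moved both ways. Odc1, which makes putrescine, was measured at 76.7, 68.2, 78.8 and 56.2 normalized counts in the basal libraries and 294, 307, 292 and 228 in the immobilized libraries. Odc1 rose (log2 fold change 1.99, adjusted p = 3.4e-08). Its stabilizer gene Azin1 rose (log2 fold change 1.30, adjusted p = 9.0e-05). Amd1, which supplies decarboxylated S-adenosylmethionine, was measured at 1918, 898, 908 and 651 normalized counts in the basal libraries and 252, 324, 377 and 157 in the immobilized libraries. Amd1 fell in immobilized muscle (log2 fold change -1.93, adjusted p = 1.7e-05). Smox, the spermine oxidase gene, was measured at 638, 228, 253 and 219 normalized counts in the basal libraries and 32.00, 79.7, 77.98 and 31.3 in the immobilized libraries. Smox fell (log2 fold change -2.56, adjusted p = 7.3e-06). Odc1 was higher and Amd1 and Smox lower in all 4 immobilized libraries, and basal replicate 1 was the highest for the latter pair. Amd2 is a near-identical copy of Amd1, so reads can be split between them. In all, 5 of 13 genes were higher (38.5%) and 4 lower (30.8%). Among 10 methyltransferase genes, Prmt1 was measured at 79.5, 66.3, 64.1 and 63.7 normalized counts in the basal libraries and 117, 137, 141 and 133 in the immobilized libraries. Prmt1 rose after immobilization (log2 fold change 0.94, adjusted p = 1.0e-07). Mettl21a (log2 fold change 0.68, adjusted p = 7.3e-04) and Smyd5 (log2 fold change 0.47, adjusted p = 0.0086) rose too. Mettl21c was measured at 89.7, 55.5, 60.6 and 33.4 normalized counts in the basal libraries and 27.3, 16.8, 40.1 and 3.79 in the immobilized libraries and fell with overlapping groups (log2 fold change -1.69, adjusted p = 0.0053, or -1.06 with adjusted p = 0.016 without immobilized replicate 4), and Mettl21e fell at low values (log2 fold change -1.19, adjusted p = 4.3e-04).

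In the BMP, GDF5 and myostatin pathway 8 of 37 genes were higher (21.6%) and 4 lower (10.8%), against 17.2% and 19.9% of all tested genes. The lower count was 2 without basal replicate 1 or 2 and 8 without immobilized replicate 1. The ligand gene Gdf5 was measured at 0.0217, 0.0651, 0.185 and 0.0218 normalized counts in the basal libraries and 2.90, 2.46, 1.41 and 3.23 in the immobilized libraries (log2 fold change 1.68, adjusted p = 5.1e-06), a separation at very low values. Smad1, a transducer of BMP signals, was measured at 7.41, 6.35, 7.56 and 8.99 normalized counts in the basal libraries and 29.6, 19.5, 19.2 and 10.6 in the immobilized libraries. Smad1 rose (log2 fold change 1.20, adjusted p = 1.1e-04). Mstn, which encodes myostatin, was measured at 50.4, 54.2, 36.2 and 36.2 normalized counts in the basal libraries and 33.9, 27.05, 30.4 and 16.8 in the immobilized libraries. Mstn fell in immobilized muscle (log2 fold change -0.71, adjusted p = 0.023, or -0.64 to -0.51 with adjusted p from 0.064 to 0.099 without basal replicate 1 or 2 or immobilized replicate 4). Of 28 genes of the dystrophin complex and membrane repair 5 were higher (17.9%) and 7 lower (25%), the former near the share of all tested genes. Dysf, or dysferlin, was measured at 69.6, 58.7, 57.8 and 64.6 normalized counts in the basal libraries and 269, 169, 163 and 162 in the immobilized libraries. Dysf rose (log2 fold change 1.56, adjusted p = 1.4e-08). The laminin receptor genes Itga7 (log2 fold change 1.33, adjusted p = 4.8e-07) and Itgb1 (log2 fold change 1.40, adjusted p = 2.7e-07) rose, while Ano5 (log2 fold change -0.93, adjusted p = 1.0e-04) fell.

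Of 30 cell cycle and replication genes 5 were higher (16.7%) and 4 lower (13.3%), against 17.2% and 19.9% of all tested genes. Without immobilized replicate 1 the higher count was 8. Calpains and caspases gave 4 higher and 4 lower of 16 (25% each). The calpain gene Capn2 (log2 fold change 0.72, adjusted p = 5.5e-05) and the inhibitor gene Cast (log2 fold change 0.78, adjusted p = 1.1e-05) rose, and Capn1 (log2 fold change -0.71, adjusted p = 7.7e-05) and the muscle calpain gene Capn3 (log2 fold change -0.56, adjusted p = 0.0019) fell, all without overlap. Collagen and matrix genes gave 6 higher (15.4%) and 7 lower (17.9%) of 39, near the shares of all tested genes. The latter count was unsteady (3 without basal replicate 3 or 4 or immobilized replicate 4, 11 without immobilized replicate 1 and 4 without immobilized replicate 2 or 3). Cyr61, a matrix protein gene of the YAP and SRF response, was measured at 25.1, 22.7, 36.4 and 25.3 normalized counts in the basal libraries and 222, 103, 89.1 and 87.1 in the immobilized libraries (log2 fold change 2.06, adjusted p = 2.4e-06). The collagen crosslinking gene Lox was measured at 2.62, 5.02, 11.4 and 9.81 normalized counts in the basal libraries and 29.4, 88.6, 11.3 and 27.99 in the immobilized libraries. Lox rose (log2 fold change 2.09, adjusted p = 0.0016). Decorin, Dcn, was measured at 225, 323, 326 and 381 normalized counts in the basal libraries and 286, 152, 121 and 165 in the immobilized libraries. Dcn fell in immobilized muscle (log2 fold change -0.84, adjusted p = 0.0023). Cyr61 was separated between groups, and Lox and Dcn overlapped.

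Markers of other cell types were mostly uncalled. Of 9 macrophage markers, all above 0, 1 was higher (3 without immobilized replicate 3). This was Cd68, measured at 0.661, 1.44, 2.32 and 1.47 normalized counts in the basal libraries and 33.7, 36.6, 17.9 and 16.9 in the immobilized libraries (log2 fold change 3.43, adjusted p = 2.0e-08), while Csf1r (0.63), Lyz2 (0.90, or 1.45 with adjusted p = 0.02 without immobilized replicate 3) and C1qa (0.27) were not called with all libraries. Endothelial markers summed to 310.4 to 414 in basal and 213 to 298 in immobilized libraries, and 3 of 7 were lower (1 without basal replicate 2 or 3 or immobilized replicate 2), of which Kdr, the VEGF receptor gene, was measured at 52.95, 48.2, 66.7 and 51.96 normalized counts in the basal libraries and 28.4, 16.9, 26.2 and 20.4 in the immobilized libraries. Kdr fell (log2 fold change -1.24, adjusted p = 2.7e-06). Fibroblast and tendon markers summed to 543 to 1319 and 357 to 1087, satellite cell markers to 40.9 to 45.2 and 49.6 to 68.8, and Schwann cell markers to 41.1 to 99.9 and 31.00 to 40.1, the last with 3 of 6 lower (0 without basal replicate 2 or 4 and 1 without immobilized replicate 1, 3 or 4). Of these, Cdh15, the M-cadherin gene of satellite cells, rose (log2 fold change 0.60, adjusted p = 2.9e-04), with Pax7 at -0.28. Neutrophil markers summed to at most 12.9, in immobilized replicate 2. All 4 had a log2 fold change above 0, with a median of 0.90, and 1 was called higher (0 without basal replicate 3 or immobilized replicate 1 or 2 and 2 without immobilized replicate 3). This was the receptor gene Csf3r, measured at 0.527, 0.639, 0.156 and 0.396 normalized counts in the basal libraries and 2.54, 4.31, 0.524 and 2.07 in the immobilized libraries (log2 fold change 1.11, adjusted p = 0.023, or 0.85 to 1.04 with adjusted p from 0.054 to 0.095 without basal replicate 3 or immobilized replicate 1 or 2). Erythroid markers summed to 206 to 1726 in basal libraries, highest in replicate 3, and to 213 to 554 in immobilized ones, none of them called. None of the adipocyte markers was called either (lower were 3 without basal replicate 1), and of the smooth muscle and pericyte markers Rgs5 fell (log2 fold change -0.63, adjusted p = 0.0095), with a count of 2 without immobilized replicate 1. None of the 5 T and B cell markers looked for was among the genes of the table. The part of these cells in the results above was not tested.

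The same contrast in WT muscle called 4624 genes (33.9%), 2205 higher (16.2%) and 2419 lower (17.7%). Of these, 1604 were higher in both genotypes, 68.4% of the Sesn1KO and 72.7% of the WT increases, and 1782 were lower in both, 65.8% and 73.7%. Over the genes called higher in WT, the Sesn1KO change had the same sign in 97.4%, with a median log2 fold change of 0.51 against 0.56 in WT. Over those called lower in WT it had the same sign in 96.5%, with medians of -0.56 and -0.61. Choosing genes by their WT call favours large WT values, so these medians do not show which genotype responded more. Ell2, Pkp4, Tinagl1 and Heg1, the 4 genes called higher in Sesn1KO and lower in WT, were named after their values were seen, and no gene was called the other way. Of these 4, only Tinagl1 passed the test of the difference between genotypes given below. The counts of shared calls come from separate Sesn1KO and WT libraries, and a gene called in 1 genotype alone is not shown to differ between them.

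Counts for the same lists in WT muscle are set beside those in Sesn1KO muscle, with no test of a list. All 14 subunits of the 20S proteasome and 19 of the 19S cap were higher in WT too, with medians of 0.84 and 0.84. Complex I had 32 lower subunits in WT (median -0.40), the citrate cycle list 20 (-0.48) and the channel list 19 (-0.68). Small heat shock genes and Bag3 were all higher, with a median of 1.25 in WT against 1.60 in Sesn1KO muscle, and the HSP70, HSP90, HSP40 and TRiC list had 14 higher and 3 lower members in WT. Slow sarcomere genes had medians of 0.92 in WT and -0.16 in Sesn1KO muscle, with 5 and 3 members higher. No member of these lists other than Pdp1 had a difference that passed the test.

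**Figure D4:**
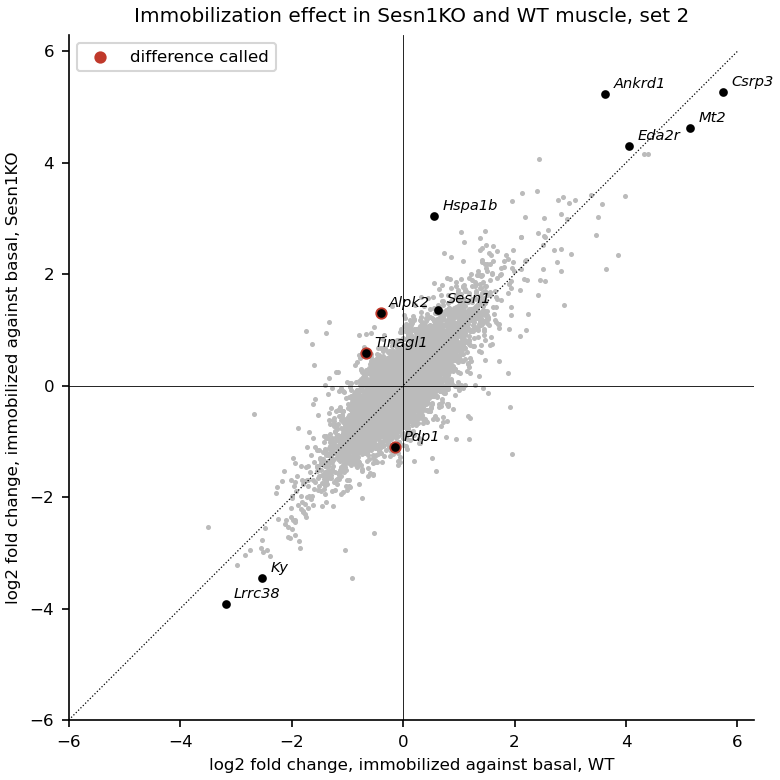
Log2 fold change of each tested gene after immobilization in WT (x axis) and Sesn1KO muscle (y axis) of set 2, with equal values on the dotted line. Csrp3, Mt2 and Eda2r lie near that line, and the 3 genes whose difference was called (red: Alpk2, Tinagl1 and Pdp1) lie away from it at smaller changes. Distance from the line does not make a call: Hspa1b and Ankrd1 lie further from it than Tinagl1 and Pdp1, and their differences were not called.

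The difference between the 2 effects, tested by itself, was called in 3 genes (0.022% of those tested), 2 with a higher and 1 with a lower effect in Sesn1KO muscle. At an unadjusted p under 0.05 there were 1087 genes (7.98%). The count was 14 without Sesn1KO immobilized replicate 4, 7 without replicate 3 of that group, 6 without WT immobilized replicate 4, 3 without WT basal replicate 2, 2 without Sesn1KO immobilized replicate 1, 1 without Sesn1KO basal replicate 4 and 0 without any other library. Alpk2, an alpha-kinase gene, was measured in Sesn1KO muscle at 63.3, 68.3, 73.7 and 69.3 normalized counts in the basal libraries and 276, 197, 159 and 97.6 in the immobilized libraries. In WT muscle it was measured at 100.4, 75.6, 84.1 and 84.1 normalized counts in basal and 65.7, 50.9, 63.5 and 81.3 in immobilized libraries. It rose in Sesn1KO (log2 fold change 1.30, SE 0.20, adjusted p = 3.0e-05) and was not called in WT (log2 fold change -0.40, SE 0.20, adjusted p = 0.13), and the difference was 1.70, SE 0.28, adjusted p = 0.026. All 4 immobilized Sesn1KO libraries exceeded basal Sesn1KO muscle, and replicate 4, the lowest, lay within the range of basal WT muscle.

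Tinagl1 (chr4:130164454-130175122, minus strand), which encodes a basement membrane protein, was measured in Sesn1KO muscle at 17.5, 17.2, 18.2 and 17.5 normalized counts in the basal libraries and 30.8, 26.9, 24.2 and 25.9 in the immobilized libraries. In WT muscle it was measured at 24.99, 16.4, 23.02 and 31.5 in basal and 15.01, 15.3, 15.5 and 11.7 in immobilized libraries. It rose in Sesn1KO (log2 fold change 0.58, SE 0.14, adjusted p = 0.0031) and fell in WT (log2 fold change -0.67, SE 0.14, adjusted p = 0.0012), with a difference of 1.25, SE 0.20, adjusted p = 0.026, and neither genotype's groups overlapped. Pdp1 (chr4:11958184-11966452, minus strand), described above for Sesn1KO muscle, was measured in WT muscle at 93.04, 109, 109 and 97.7 in basal and 92.97, 98.7, 88.8 and 88.8 in immobilized libraries. There the groups overlapped (log2 fold change -0.14, SE 0.11, adjusted p = 0.31), and the difference was -0.95, SE 0.15, adjusted p = 0.026, with the 4 immobilized Sesn1KO libraries below every WT library. The calls of the difference were near the threshold. With 1 of the 16 libraries left out in turn, Alpk2 kept its call without Sesn1KO immobilized replicate 1, 3 or 4, WT basal replicate 2 or WT immobilized replicate 4 and lost it in the other 11 cases. Pdp1 kept its call without these or Sesn1KO basal replicate 4, and Tinagl1 without these other than Sesn1KO immobilized replicate 1, so that they lost it in 10 and 12 cases, with adjusted p of up to 0.11.

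**Figure D5:**
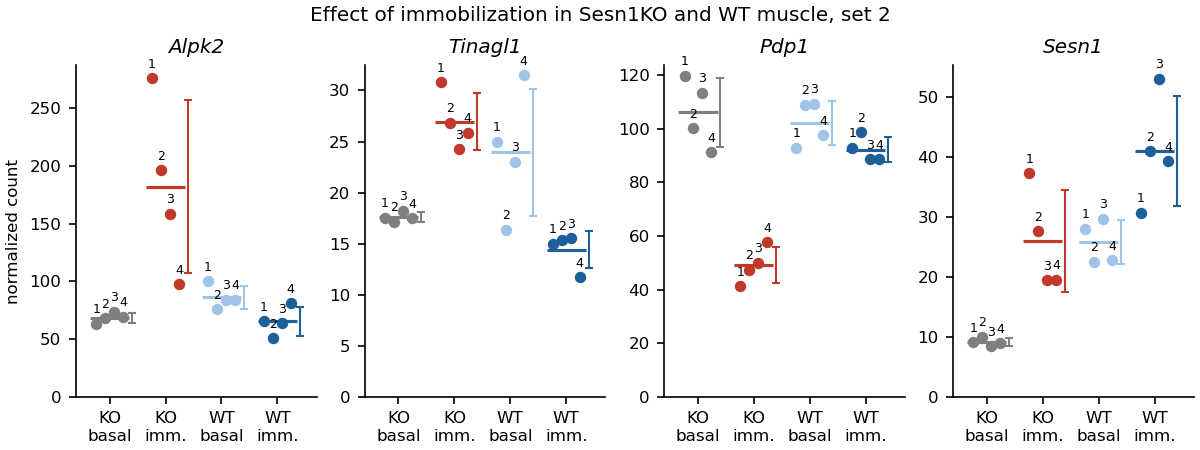
Normalized counts (linear axis from 0) of Alpk2, Tinagl1, Pdp1 and Sesn1 in basal and immobilized Sesn1KO and WT muscle of set 2; numbers are replicates, horizontal bars means and error bars SD of 4 libraries. Alpk2 reaches 276 in an immobilized Sesn1KO library while immobilized WT libraries stay under 100, and Pdp1 is lowest in the 4 immobilized Sesn1KO libraries.

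Genes with strong responses were compared between the genotypes one by one. The differences for the 4 markers did not pass the test, -0.47, SE 0.57, adjusted p = 0.88 for Csrp3, 1.60, SE 0.77, adjusted p = 0.63 for Ankrd1, -0.73, SE 0.54, adjusted p = 0.78 for Lrrc38 and -0.92, SE 0.54, adjusted p = 0.7 for Ky. Of the heat shock genes, Hspa1b had a difference of 2.48, SE 0.91, adjusted p = 0.49 and Hspb1 of 1.08, SE 0.44, adjusted p = 0.54. Trim63 had a difference of -0.37, SE 0.39, adjusted p = 0.86, Fbxo32 of -0.87, SE 0.56, adjusted p = 0.75 and Foxo1 of 0.84, SE 0.25, adjusted p = 0.34. Pdk4 had a difference of 1.16, SE 0.38, adjusted p = 0.43, Hdac9 of -1.32, SE 0.28, adjusted p = 0.14 and mt-Rnr1 of 0.88, SE 0.19, adjusted p = 0.14. None of these was distinguishable from 0 at the adjusted threshold, which does not show that the genotypes respond alike.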

How the data were processed

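RNA of TA muscle was sequenced in 42 libraries, 20 of them in set 2. Per the methods and the submitters' processing notes, the authors trimmed reads with Cutadapt 1.7.1, discarding those under 30 bp, quantified genes with RSEM 1.2.20 on GRCm38 release 76, and normalized with limma. The values deposited by the authors are a linear signal, normalized counts per gene, and the reads behind them cannot be recovered. Sets were not mixed, because values appear to have been adjusted per gene between them, which was not tested. Of 13809 genes, 13629 reached 1 in at least 1 library of set 2. From these, log2(value + 1) was fitted with limma 3.58.1 in R 4.3.3 (lmFit and eBayes with trend) over the 5 groups of set 2, denervated WT muscle included, which share 1 estimate of the spread, and p-values were adjusted by Benjamini-Hochberg over all tested genes. Data were also simulated with independent normal noise of 1 SD per gene for all groups, and 100 genes above a low basal level changed per size. There 98% of changes of 2 and 92% of changes of 1 on the log2 scale were recovered for the Sesn1KO contrast. This came with 7 false calls among the unchanged genes, and 96% and 72% were recovered for the difference between genotypes. Unequal spread between groups and outlying libraries were not simulated, so these shares can overstate recovery in the real data. The share of changed genes, on which the adjusted threshold depends, also differed from the share called in either real contrast. The recovered shares therefore do not give the power of the real tests.

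Genes to name were the sestrins, the markers, the 15 largest called changes per direction with a mean of at least 5 in the higher group, the 5 smallest adjusted p per direction, the 3 largest called changes per list and direction, all members of lists of up to 12 genes, and genes whose difference was called, 368 in all. Of these, 251 are named, a selection made after their values were seen. Myoz1, Ell2, Pkp4 and Heg1 were added after their values were seen, as were Fbxo32 and the mitochondrial lists. Members and lists were chosen with earlier results of these data known. Positions are from GENCODE M21, and promoters of RefSeq were matched by symbol for 9839 tested genes. Alternatives covered the filter, the pseudocount, the scaling, the variance model, a replicate block, thresholds and each library left out. List totals count every tested member, and some genes are not reported here.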

Additional observations from a re-analysis of the deposited data

Results flagged for a closer look

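Of 512 groups of 4 libraries checked, the basal and immobilized Sesn1KO groups of the 256 genes named above, 36 held a library whose gap to its nearest neighbour exceeded Dixon's critical value. Chance flags about 1 in 20 groups, and over all 13629 genes 6.74% of basal and 6.32% of immobilized groups were set apart this way. The 36 of 512 lay near these shares. The flags listed below are therefore a description and do not set the named genes or any library apart from the rest. Values are normalized counts. Immobilized replicate 1 was the highest of its group for Hspa1b (291), Hspa1a (283), Hsp90aa1 (295), Bag3 (411), Atf3 (317), Cyr61 (222), Dysf (269) and Fbxo40 (1278), and the lowest for Cacng1 (228) and Fam78a (2.72). Immobilized replicate 2 was the highest for Mt2 (455), Mt1 (349), Mt3 (21.2), Slc39a14 (93.8), Lcn2 (41.0), Lgmn (115) and Slc2a1 (23.2), and the lowest for Eprs (436), Trim55 (22.7) and Ifit3 (0.743). Immobilized replicate 3 was the highest for Ache (19.1), Kcng4 (21.4) and Mdga1 (4.77) and the lowest for Sqstm1 (683). Immobilized replicate 4 was the lowest for Nr3c1 (57.1).

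In the basal group replicate 3 was the highest for Pdk4 (495) and Timp1 (3.34) and the lowest for Lrrc38 (33.4), Ache (33.9) and Eif4a1 (49.9). Basal replicate 1 was the highest for Smox (638) and Prmt1 (79.5), basal replicate 2 for Gsr (21.3) and Lars (46.8), and basal replicate 4 was the highest for Mybph (17.2) and the lowest for Cacng1 (143). What lay behind single flags was not tested.

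Alpk2, Tinagl1 and Pdp1 stood out by a test of the difference between genotypes, with differences in log2 fold change of 1.70, 1.25 and -0.95 (Sesn1KO minus WT) in limma. Each had an adjusted p of 0.026, and each difference lost its call under most of the left-out libraries.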

How the results depend on the processing

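The number of genes called in Sesn1KO muscle (5054) lay between 4413 and 5140 with 1 library left out, and was 4209 with only the groups compared in the fit, 4924 with a replicate block and 4799 without immobilized replicate 1, the library with high heat shock genes. In WT muscle (4624) it lay between 3884 and 4584 with 1 library left out and was 4505 with the block. With a log2 fold change of 1 or more in size, 889 genes were called in Sesn1KO (459 higher, 430 lower) and 686 in WT muscle (348 higher, 338 lower). Median centring moved the share of higher calls in Sesn1KO muscle from 46.4% to 53.3%.

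The difference between genotypes, called in 3 genes by limma (2 higher, 1 lower; 1087 genes had an unadjusted p under 0.05), was called in 5 with quantile normalization, median centring or robust eBayes, of which 2 were lower. It was called in 0 without the trend, with the replicate block (0 higher, 0 lower) and with only the groups compared, and at a log2 change of at least 1 in 0 lower genes. With 1 library left out it ranged from 0 to 14 genes (0 to 10 higher, 0 to 4 lower). For 373 genes, those to name and those added, no change of direction occurred among the called values, 7051 of the recomputed Sesn1KO effects kept their side of the threshold, 359 lost their call and 45 gained one. The cause of these shifts was not tested.

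Replicate numbers did not pair the libraries. Same-numbered deviations in the Sesn1KO groups correlated at -0.189, 0.00524, -0.146 and 0.0573, and no library correlated best with its own number. Depth is unknown, so that no limit from counting error can be given for low genes such as Gdf5, Mt3 and Slc39a8.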
